A study of Mus musculus with 8 samples.

Results

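The nuclear genes of oxidative phosphorylation were compared between prospermatogonia labelled Tet1-/- (KO) and Tet1+/+ (WT). Members were all protein-coding genes of the deposited count table whose GENCODE M21 symbol starts with Ndufa, Ndufb, Ndufc, Ndufs, Ndufv, Uqcr, Cox4 to Cox8 or Atp5, together with Sdha, Sdhb, Sdhc and Sdhd. The rule took 94 of the 55401 genes in the table, under 93 symbols, because 2 entries carry the name Atp5o. It used symbols and no measured value. It also takes the Ndufaf assembly factors, which are described apart from the subunits. Complex I had 38 members, complex I assembly 8, complex II 4, complex III 8, complex IV 18 and complex V 18.

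Prospermatogonia are the germ cells of the testis before birth, and all libraries came from mouse embryos at E17.5, all in 1 batch. There were 4 KO libraries and 4 WT libraries, made from 5 ng of ribosomal RNA-depleted total RNA with a kit that carries unique molecular identifiers. Tet1 encodes a dioxygenase that oxidises 5-methylcytosine in DNA. The kind of Tet1 allele, the strain and the way the cells were isolated were not given in the sources used here. Each library name carries numbers whose meaning the labels do not give, and those of KO 1 and WT 1 start with the same number. The labels do not say whether libraries came from separate animals, so p-values measure the spread between these libraries, which may be in part technical.

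The respiratory chain of the inner mitochondrial membrane passes electrons from NADH and succinate through complexes I to IV to oxygen and pumps protons, and complex V (ATP synthase) lets protons flow back to make ATP. A small core of subunits of complexes I, III, IV and V is encoded by mitochondrial DNA, while complex II and all other subunits are encoded in the nucleus and imported. Several subunits of complex IV exist as a widely expressed form and a form typical of heart and muscle, lung or testis. Promoters of the nuclear genes are known for binding sites of the factors NRF1, GABP (an ETS factor) and YY1.

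Total counts ran from 13820764 to 20115250 per library, and a count of 0 allowed up to 0.146 to 0.221 CPM (counts scaled to the library size after TMM, trimmed mean of M values, adjustment), which covers counting error only. Tet1 itself stood at 30.3, 30.2, 32.8 and 34.2 CPM in WT 1 to 4 and at 129, 145, 75.8 and 147 CPM in KO 1 to 4. All libraries labelled KO thus lay above all WT libraries (log2 difference 1.97, SE 0.18, edgeR adjusted p = 3.03e-06), which goes against a plain reading of the label, and every direction below is between libraries as labelled. The germ cell markers summed to 1685 to 2089 CPM in WT and 1912 to 2476 CPM in KO. One library stood apart: 7 Leydig cell markers summed to 1809 CPM in KO 4 and to 16.1 to 35.8 CPM in the other 7 libraries, and 9 Sertoli cell markers to 99.0 against 19.9 to 32.1 CPM. Within the Sertoli sum Inha was at 58.3 CPM in KO 4 and 2.21 to 2.36 CPM in the other KO libraries. Gata4 was at 17.4 against 7.15 to 7.95 CPM. Sox9, Wt1 and Amh were at 6.23, 7.33 and 5.01 CPM in KO 4, against up to 6.13, 6.30 and 3.98 CPM in the other KO libraries. Single markers moved apart within the lists. Of 9 germ cell markers 5 were higher without overlap (Nanos3 2.10, Nanos2 1.66, Pou5f1 1.495, Dazl 0.71 and Sall4 0.64 on the log2 scale), Mael was lower (-1.13) and 3 did not pass. Of 8 tested Sertoli cell markers Wt1 (1.13), Amh (1.20) and Inha (3.51) were above WT in all KO libraries and Dhh (-0.83) below. The size of the Inha difference rests largely on KO 4. Of the tested markers of endothelium 1 of 5 was higher and 4 lower, of peritubular and stromal cells 2 of 8 and 1, of macrophages and blood 1 of 6 and 2, and of Leydig cells 5 of 6 and none. For no Leydig cell marker did every KO library lie above every WT library. Cyp17a1, for one, was at 862 CPM in KO 4, 1.55 to 4.70 CPM in the other KO libraries and 0.292 to 6.16 CPM in WT. Over all tested genes 25.3% were higher and 28.2% lower. Every KO library lay above every WT library for 23.2% of them and below for 25.1%. Among coding genes whose mean log2 CPM reached 4, 46.4% were higher and 18.0% lower. No marker list was tested against these shares, and the part of the marker shifts in the results was not tested. None of the marker lists had a marker at 0 in all libraries. In bulk libraries fewer cells of a type and less RNA per cell cannot be told apart.

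Of the 94 members 91 passed the filter on low counts. In the KO libraries 51 of the 91 were higher and 5 were lower at an adjusted p under 0.05 (edgeR quasi-likelihood test, adjusted over all 24005 tested genes), and 35 did not pass. Among all tested genes 25.3% were higher and 28.2% lower, 53.5% in either direction. The median log2 difference was 0.40 over the 91 members and -0.05 over all tested genes, and 74 members had a positive sign. Every KO library lay above every WT library for 36 members, where 23.2% of all tested genes did so, and below for 2, where 25.1% did. A rise of 1 or more on the log2 scale passed in 17 members and in 8.78% of all tested genes. Among the 8070 coding genes whose mean log2 CPM reached 4, 46.4% were higher and 18.0% lower (median 0.26), and of the 64 members at that abundance 38 were higher and 4 lower (median 0.37). Higher calls were thus frequent among abundant coding genes in general. Of the 304 such genes whose principal transcript is under 1000 bases 148 were higher and 19 lower (median 0.35). Of the 34 such members 19 were higher and 2 lower (median 0.36). Under a mean log2 CPM of 4, 13 of 27 tested members were higher and 1 lower (median 0.51). Of the 8498 coding genes under it 16.4% were higher and 41.1% lower (median -0.51). Within this range the members were the more abundant, with a median of 3.10 against 2.09. No difference between members and coding genes was tested.

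**Figure D1:**
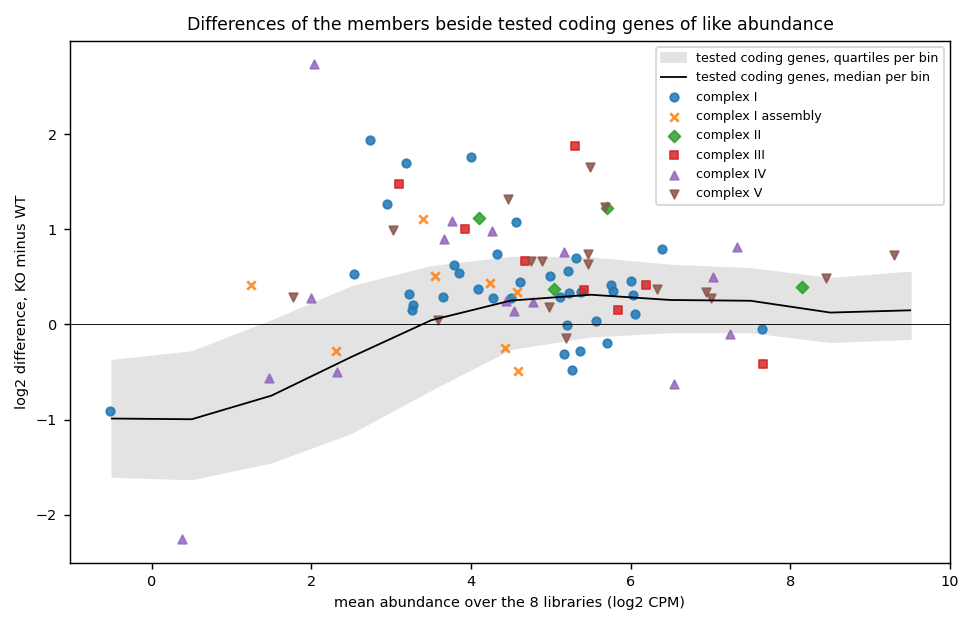
Each symbol is 1 of 90 of the 91 tested members, with its mean abundance over the 8 libraries (log2 CPM) on the x axis and its log2 difference, KO minus WT, on the y axis. The line and band give the median and quartiles of all tested coding genes in bins of abundance; the band rises from negative medians at low abundance to positive ones at high abundance, and 73 of the plotted members lie above 0.

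The counts depended on how libraries were scaled. Upper-quartile scaling gave 29 higher and 13 lower members (median 0.16), scaling on ribosomal protein genes 32 and 9 (0.23), and cyclic loess 34 and 11 (0.20), so that 69.0%, 78.0% and 75.6% of called members were higher, against 91.1% under TMM. The median log2 difference of all tested genes was -0.29, -0.21 and 0.02 under these scalings, and the median change of a gene's own value from TMM was -0.24, -0.15 and 0.12. No called member changed sign in any of 19 alternative settings, and 32 of the 56 called members kept their call in all of them in which they were tested, 29 higher and 3 lower. Without KO 4, 46 members were higher and 5 lower. Leaving out KO 2 gave the fewest higher members (40) and leaving out KO 3 the most (60). Of the 91 members 66 had their lowest KO value in KO 3, while the highest KO value was in KO 2 for 42 members and in KO 1 for 38.

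**Figure D2:**
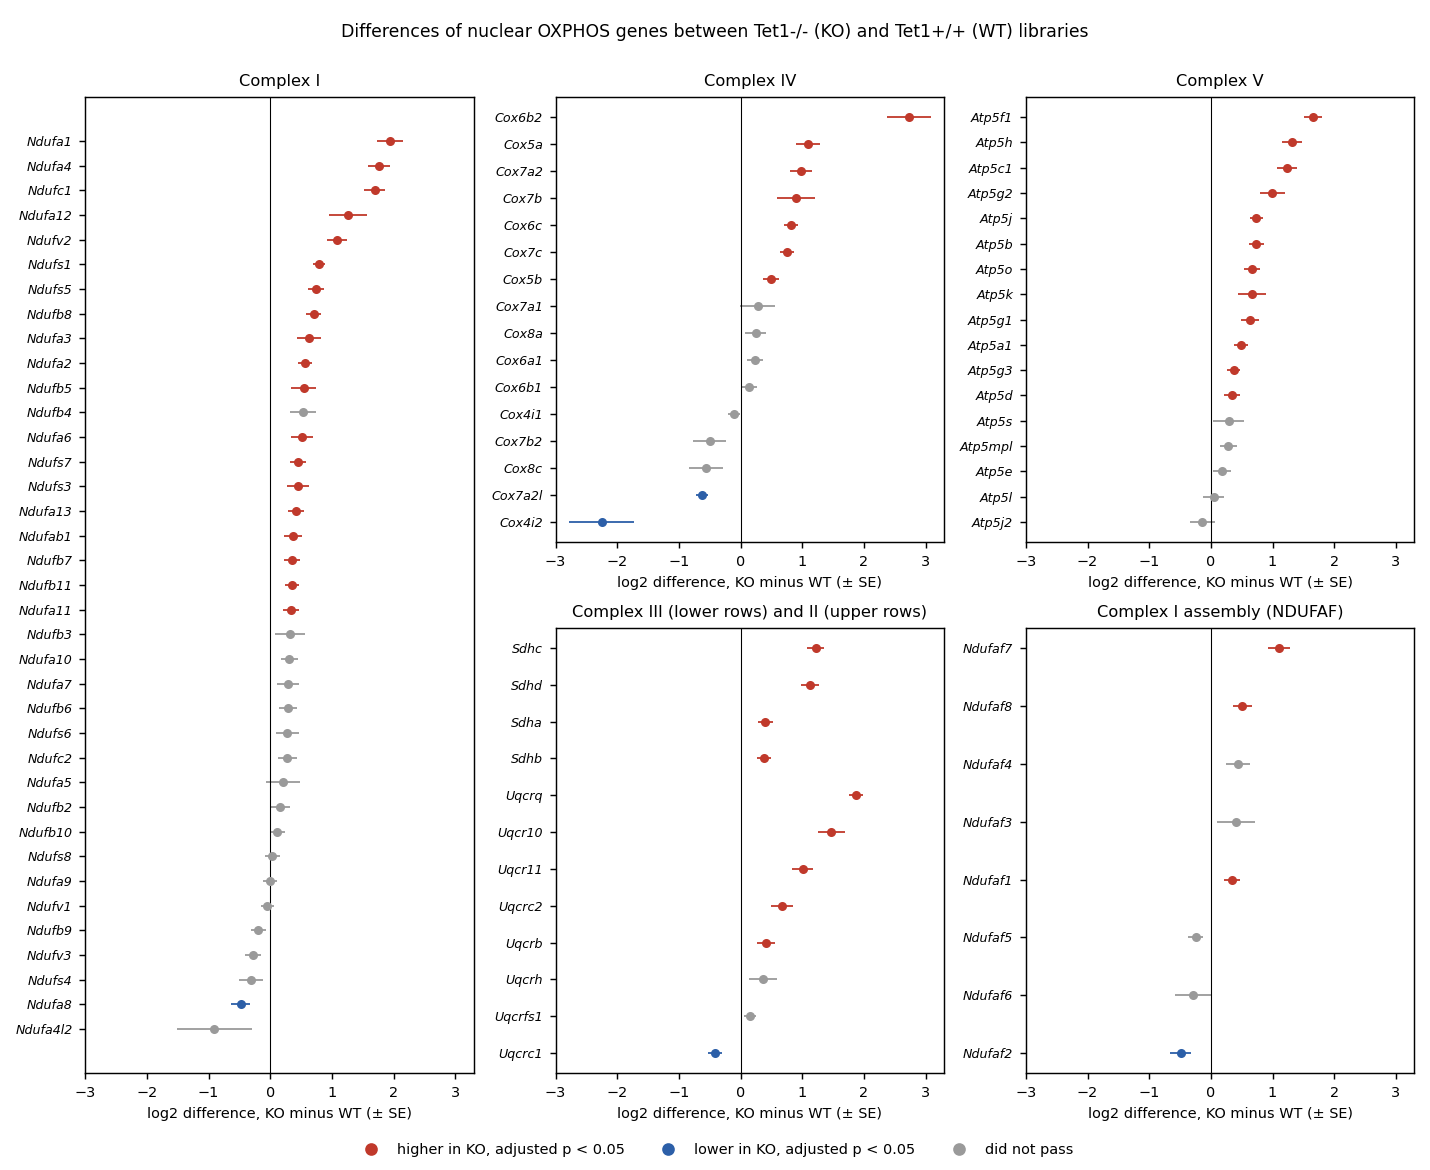
Log2 difference, KO minus WT, with its SE for 90 of the 91 tested members, 1 panel per complex (complexes II and III share a panel), coloured by edgeR call. All 4 complex II members and 12 of 17 complex V members are higher, the largest rise is that of Cox6b2, and Cox4i2 has the largest fall.

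The CPM of all members of a complex were summed in each library. Complex V, the largest sum, took 1189 to 1501 CPM in the WT libraries and 1801 to 2307 CPM in the KO libraries, a ratio of means of 1.52. The ratio was 1.45 for complex II (265 to 346 against 402 to 532 CPM), 1.27 for complex I (1136 to 1235 against 1303 to 1642 CPM) and 1.23 for complex IV (609 to 665 against 673 to 892 CPM). The groups did not overlap for these 4 complexes. They overlapped for complex III (383 to 465 against 429 to 563 CPM, ratio 1.13) and for the complex I assembly factors (103 to 117 against 106 to 136 CPM, ratio 1.10). The CPM of all tested genes together also summed higher in every KO library, because library sizes were multiplied by TMM factors. These factors were 0.885 to 0.984 in KO and 1.03 to 1.11 in WT. No sum of a complex was tested against this shift. Single genes weigh heavily in the sums of complexes. In WT Uqcrc1 averaged 231 of the 436 CPM of complex III, and Sdha 245 of the 315 CPM of complex II. The small subunits of complex III summed to 106 to 145 against 191 to 259 CPM (ratio 1.72), and its core and Rieske proteins had a ratio of 0.870. Under upper-quartile scaling only complexes II (ratio 1.22) and V (1.29) had no overlap, and the ratios of complex III (0.953) and the assembly factors (0.929) turned below 1. Under ribosomal protein scaling complexes I, II, IV and V had no overlap, with ratios of 1.13, 1.29, 1.09 and 1.36, while complex III stood at 1.00 and the assembly factors at 0.979.

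**Figure D3:**
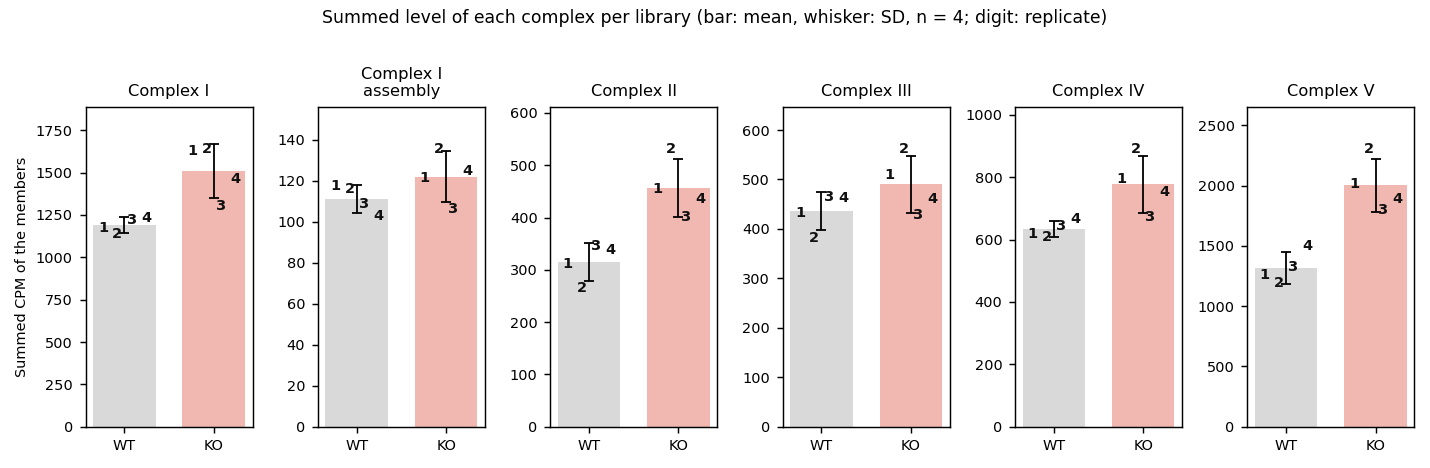
Summed CPM of the members of each complex (y axis, own scale from 0 in each panel) in the WT and KO libraries; bars are means, whiskers SD (n = 4) and digits the replicate numbers. In complex V the KO libraries sit between 1801 and 2307 CPM, all above the WT libraries, while in complex III the groups overlap.

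Promoters were described with 5 short motifs searched on both strands of RefSeq windows (GRCm38.p6) of 300 bases, from 250 before to 50 after each start. Of the member symbols 76 matched, with 81 windows, beside 32817 windows of all genes. The NRF1 motif, given here by name alone, was in 24.7% of member windows and 4.59% of all windows, the ETS motif CCGGAAG in 22.2% and 8.86%, and the YY1 motif AAGATGGC in 13.6% and 2.74%. Any of these 3 was in 51.9% of member windows and 14.7% of all, and no pair of matches overlapped. CCAAT was in 43.2% of member windows and 37.4% of all, and TATAAA in 9.88% and 13.6%. Member windows held a median of 20 CpG dinucleotides against 7 over all windows, and 95.1% of them held 10 or more, against 43.4%. The NRF1 and ETS motifs themselves contain CpG. Motif shares were not compared with those of windows of like CpG content. A match is a description of letters, not a shown binding site. Of tested members with the NRF1 motif 11 of 19 were higher, and of those matched without it 31 of 56. The counts were 10 of 18 and 32 of 57 for the ETS motif and 7 of 11 and 35 of 64 for the YY1 motif.

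Of the catalytic core of complex I, which carries electrons from NADH to ubiquinone, 6 nuclear-encoded subunits are described, and 4 of them rose. Ndufs1 and Ndufv2, iron-sulfur subunits of the arm that takes electrons from NADH, rose without overlap. Ndufs1 was at 61.3 ± 4.15 CPM in WT and 106 ± 8.84 CPM in KO (SD, n = 4, log2 difference 0.79, SE 0.10, edgeR adjusted p = 3.76e-05) and Ndufv2 at 15.2 ± 1.34 CPM in WT and 32.1 ± 7.63 CPM in KO (SD, n = 4, log2 difference 1.08, SE 0.16, edgeR adjusted p = 1.33e-04). Ndufs7 and Ndufs3, of the ubiquinone-binding part, each rose by 0.45 on the log2 scale with overlapping groups, and both calls were lost under the 3 scalings named above. Ndufs3 also lost its call when KO 1, KO 2, KO 4, WT 1 or WT 3 was left out. Ndufv1, which holds the flavin that accepts electrons from NADH, did not pass: it was at 204, 184, 196 and 227 CPM in WT and 187, 216, 201 and 179 CPM in KO (log2 difference -0.05, SE 0.10, edgeR adjusted p = 0.699). It passed as lower under upper-quartile scaling and cyclic loess, with values down to -0.29, and its sign turned without KO 4 or WT 4. Ndufs8 did not pass either (log2 difference 0.03, SE 0.13). Ndufv1 was the most abundant of these 6 in both groups, at 122 CPM per kb of its principal transcript in WT and 118 in KO, while Ndufv2 was the lowest in WT (8.93 CPM per kb) and Ndufs7 came second in KO (75.3 CPM per kb).

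Of the 29 accessory subunits, which surround the core and stabilise it, 14 were higher, 1 lower and 14 did not pass (median 0.33). The share higher, 48.3%, stood beside 25.3% of all tested genes and 46.4% of coding genes whose mean log2 CPM reached 4. The largest rises were in small membrane-arm subunits. Ndufa1, encoded on the X chromosome, was at 2.87, 1.97, 2.77 and 3.24 CPM in WT and 13.2, 9.25, 9.67 and 9.64 CPM in KO (log2 difference 1.94, SE 0.21, edgeR adjusted p = 1.28e-05). Ndufc1 was at 3.89, 4.01, 4.62 and 4.53 CPM in WT and 14.5, 15.3, 11.2 and 14.1 CPM in KO (log2 difference 1.69, SE 0.17, edgeR adjusted p = 6.73e-06). For both genes the KO values were well clear of the WT values. Ndufa12, of the matrix arm, rose by 1.26 (SE 0.31, edgeR adjusted p = 0.00413), but KO 3 at 4.35 CPM lay inside the WT range of 3.56 to 5.79 CPM, and the other KO libraries were at 11.1 to 15.6 CPM. The promoter of Ndufc1 is shown because it holds the YY1 motif, in capitals, and lies on chr3:51408906-51409205, minus strand.
Ndufc1: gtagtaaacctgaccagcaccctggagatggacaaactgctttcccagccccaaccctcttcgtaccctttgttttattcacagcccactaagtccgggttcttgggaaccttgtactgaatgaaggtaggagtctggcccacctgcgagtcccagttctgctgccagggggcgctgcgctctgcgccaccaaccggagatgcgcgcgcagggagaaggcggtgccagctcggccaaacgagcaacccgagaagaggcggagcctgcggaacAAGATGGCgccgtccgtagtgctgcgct

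The other higher accessory subunits rose by between 0.33 and 0.74: Ndufs5, Ndufb8, Ndufa3, Ndufa2, Ndufb5, Ndufa6, Ndufa13, the acyl carrier protein Ndufab1, Ndufb7, Ndufb11 and Ndufa11. Ndufs5, Ndufb8, Ndufa2 and Ndufb11 had no overlap between groups. The calls of Ndufab1, Ndufa11 and Ndufb7 were the least firm, lost in 12, 11 and 11 of the 19 settings. Those of Ndufa3, Ndufa6, Ndufa13, Ndufb5 and Ndufb11 were lost under upper-quartile and ribosomal protein scaling, and, of these, all but that of Ndufa3 were lost in further settings, so that Ndufb5 lost its call in 9 of the 19, Ndufa6 in 7, and Ndufa13 and Ndufb11 in 4 each. Ndufa8, a cysteine-rich subunit of the intermembrane space, was the 1 complex I subunit that fell, from 48.6, 46.5, 47.3 and 35.6 CPM in WT 1 to 4 to 36.1, 35.6, 22.2 and 33.6 CPM in KO 1 to 4 (log2 difference -0.48, SE 0.16, edgeR adjusted p = 0.0209). WT 4 shared the level of KO 1 and KO 2, and the call was lost without KO 3, WT 1 or WT 3. The 14 that did not pass were Ndufa5, Ndufa7, Ndufa9, Ndufa10, Ndufb2, Ndufb3, Ndufb4, Ndufb6, Ndufb9, Ndufb10, Ndufc2, Ndufs4, Ndufs6 and Ndufv3, with differences from -0.31 (Ndufs4) to 0.53 (Ndufb4). Ndufb9, Ndufs4 and Ndufv3 had negative differences that passed under all 3 scalings named above, Ndufb4 passed as higher in 6 of the 19 settings, DESeq2 among them, and Ndufa9 stood at 36.8 ± 3.11 CPM in WT and 36.8 ± 2.72 CPM in KO (SD, n = 4).

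Ndufa4 is named for complex I, with which it was counted, and is now placed with complex IV. It was at 8.35, 6.62, 6.96 and 7.05 CPM in WT and 32.5, 25.3, 17.9 and 22.8 CPM in KO, with no overlap (log2 difference 1.76, SE 0.18, edgeR adjusted p = 8.78e-06). Its relative Ndufa4l2, known from hypoxic cells, reached at most 1.16 CPM in any library and did not pass (log2 difference -0.91, SE 0.61). Per kb of transcript Ndufa4l2 made up 4.03 to 10.3% of the pair in WT and 0.266 to 2.69% in KO. KO 4 held the highest KO level of Ndufa4l2, at 0.964 CPM, and without KO 4 the gene passed as lower (-1.84, edgeR adjusted p = 0.0292).

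Complex I is built with the help of assembly factors, and of the 8 Ndufaf members 3 were higher, 1 lower and 4 did not pass. Higher calls thus made up 37.5%, beside 25.3% of all tested genes and 46.4% of coding genes whose mean log2 CPM reached 4. Ndufaf7, a methyltransferase that acts early in assembly, was at 6.86, 5.87, 6.77 and 6.99 CPM in WT and 13.3, 17.47, 10.3 and 15.9 CPM in KO (log2 difference 1.11, SE 0.18, edgeR adjusted p = 2.69e-04). It was the factor with the largest rise, without overlap between groups. Ndufaf8 and Ndufaf1 rose by 0.51 and 0.34. Both calls were lost under upper-quartile and ribosomal protein scaling, and that of Ndufaf1 in 11 of the 19 settings. Ndufaf2, a paralog of Ndufa12 that occupies its place during assembly, fell from 31.5, 30.4, 30.6 and 18.6 CPM in WT 1 to 4 to 23.9, 20.03, 16.8 and 18.5 CPM in KO 1 to 4 (log2 difference -0.49, SE 0.17, edgeR adjusted p = 0.0296). WT 4, at the KO level, set the overlap, and the call was lost when KO 2, KO 3, KO 4, WT 1, WT 2 or WT 3 was left out. Ndufaf2 shares 65.7% of its exon bases with B230220B15Rik on the opposite strand, which was at 0.0678 CPM in WT and 0.0676 CPM in KO. Ndufaf3, Ndufaf4, Ndufaf5 and Ndufaf6 did not pass, with differences of 0.41, 0.43, -0.24 and -0.28. Ndufaf5 passed as lower under the 3 scalings, and Ndufaf4 as higher in 5 and Ndufaf3 in 2 of the 19 settings.

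All 4 subunits of complex II, the succinate dehydrogenase shared by the citric acid cycle and the respiratory chain, rose with no overlap between groups. Of all tested genes 25.3% were higher, and in 23.2% every KO library lay above every WT library. The membrane anchors Sdhc and Sdhd had larger log2 differences than the catalytic subunits, a contrast that was not tested. Sdhc was at 31.7, 26.0, 31.0 and 36.5 CPM in WT and 69.0, 90.2, 69.5 and 62.6 CPM in KO (log2 difference 1.22, SE 0.14, edgeR adjusted p = 1.64e-05). Sdhd was at 8.81, 10.8, 11.4 and 11.9 CPM in WT and 23.5, 26.2, 21.1 and 22.5 CPM in KO (log2 difference 1.12, SE 0.14, edgeR adjusted p = 3.75e-05). The flavoprotein Sdha was at 245 ± 32.9 CPM in WT and 322 ± 40.9 CPM in KO (SD, n = 4, log2 difference 0.40, SE 0.12, edgeR adjusted p = 0.0156), and the iron-sulfur subunit Sdhb at 28.5 ± 1.87 CPM in WT and 37.0 ± 4.07 CPM in KO (SD, n = 4, log2 difference 0.38, SE 0.12, edgeR adjusted p = 0.0154). Per kb of transcript the anchors stood at 9.87 and 8.72 CPM in WT beside 84.4 for Sdha and 24.96 for Sdhb, and at 23.0 and 19.0 beside 111 and 32.4 in KO. The calls of Sdha and Sdhb, not those of the anchors, were lost under the 3 scalings. The promoter of Sdhd holds the NRF1 and the ETS motif, in capitals, on chr9:50603800-50604099, minus strand, and is shown as a rising member with both.
Sdhd: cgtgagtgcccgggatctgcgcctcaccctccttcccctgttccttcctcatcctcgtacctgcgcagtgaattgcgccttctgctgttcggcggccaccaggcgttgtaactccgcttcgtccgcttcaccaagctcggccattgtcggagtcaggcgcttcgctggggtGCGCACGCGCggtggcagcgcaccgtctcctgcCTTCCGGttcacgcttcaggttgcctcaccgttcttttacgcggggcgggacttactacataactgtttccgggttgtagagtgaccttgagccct

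In complex III, which passes electrons from ubiquinol to cytochrome c, 5 members were higher, 1 lower and 2 did not pass (median 0.54). Higher calls were 62.5% of its 8 members, 25.3% of all tested genes and 46.4% of coding genes whose mean log2 CPM reached 4. The small subunits without redox centres accounted for 4 of the 5 rises. Uqcrq was at 16.5, 15.97, 15.97 and 19.1 CPM in WT and 62.3, 65.2, 59.2 and 60.5 CPM in KO (log2 difference 1.87, SE 0.11, edgeR adjusted p = 1.46e-07). Uqcr10 was at 4.51, 4.30, 4.24 and 4.98 CPM in WT and 16.3, 13.5, 7.90 and 12.3 CPM in KO (log2 difference 1.47, SE 0.22, edgeR adjusted p = 1.07e-04). In both genes the groups stood clear of each other, with KO 3 the lowest of the KO libraries. Uqcr11 rose by 1.01 without overlap and Uqcrb by 0.41 with overlap, a call lost in 7 of the 19 settings, while Uqcrh, the hinge protein, did not pass (0.36, SE 0.23).

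The pair of core proteins of complex III differed in opposite directions. Uqcrc2 was at 21.8, 16.1, 23.9 and 17.0 CPM in WT and 36.8, 33.5, 21.0 and 34.1 CPM in KO (log2 difference 0.67, SE 0.18, edgeR adjusted p = 0.00767). Uqcrc1 was at 223, 204, 248 and 247 CPM in WT and 167, 205, 162 and 159 CPM in KO (log2 difference -0.41, SE 0.11, edgeR adjusted p = 0.00714). KO 2 overlapped the WT range of Uqcrc1, and KO 3 that of Uqcrc2. The fall of Uqcrc1 kept its call in all 19 settings and the rise of Uqcrc2 in all but upper-quartile scaling and cyclic loess. Per kb of transcript Uqcrc1 was at 140 CPM in WT and 105 in KO, above Uqcrc2 at 10.4 and 16.5. The Rieske iron-sulfur protein Uqcrfs1 did not pass (0.15, SE 0.10), with levels of 54.0 ± 1.63 CPM in WT and 59.8 ± 4.25 CPM in KO (SD, n = 4). The promoter of Uqcrc1 is shown because it holds the NRF1 motif at 2 places, in capitals, in a member that fell, on chr9:108936398-108936697, plus strand.
Uqcrc1: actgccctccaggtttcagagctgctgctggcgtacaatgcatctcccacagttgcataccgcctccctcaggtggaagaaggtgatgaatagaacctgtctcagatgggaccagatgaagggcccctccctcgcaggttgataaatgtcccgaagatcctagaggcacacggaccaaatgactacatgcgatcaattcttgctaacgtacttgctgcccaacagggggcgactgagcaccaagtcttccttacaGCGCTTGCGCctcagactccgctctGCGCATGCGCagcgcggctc

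In complex IV, cytochrome c oxidase, 16 of the 18 members were tested: 7 were higher, 2 lower and 7 did not pass (median 0.26). That is 43.8% higher, beside 25.3% of all tested genes and 46.4% (median 0.26) of coding genes whose mean log2 CPM reached 4. Of the 11 widely expressed subunits 6 were higher and 1 lower. Cox5a was at 8.81, 8.71, 9.40 and 7.57 CPM in WT and 23.2, 20.4, 12.5 and 17.54 CPM in KO (log2 difference 1.09, SE 0.19, edgeR adjusted p = 3.44e-04). Cox6c, the most abundant member of the complex in the KO libraries per kb, was at 117 ± 11.6 CPM in WT and 206 ± 25.8 CPM in KO (SD, n = 4, log2 difference 0.82, SE 0.11, edgeR adjusted p = 6.91e-05), and Cox7c at 26.6 ± 1.88 CPM in WT and 45.0 ± 4.67 CPM in KO (SD, n = 4, log2 difference 0.76, SE 0.12, edgeR adjusted p = 1.40e-04). Cox5b rose by 0.50, a call lost under upper-quartile scaling and cyclic loess. Cox4i1, Cox6a1, Cox6b1 and Cox8a did not pass, with differences of -0.10, 0.23, 0.14 and 0.24. Cox4i1 passed as lower under upper-quartile scaling (-0.34) and cyclic loess (-0.36). Cox4i1, the regulatory subunit, was the most abundant in WT per kb (205 CPM, and 191 in KO), with 159.5, 147, 160.1 and 160.3 CPM in WT 1 to 4 and 159.7, 158, 134 and 132 CPM in KO 1 to 4.

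The forms of the COX7A family differed in direction. Cox7a2 is the common subunit, and Cox7a2l (SCAF1) is known to join complexes III and IV in supercomplexes. Cox7a2 was at 13.5, 11.5, 14.1 and 11.97 CPM in WT and 31.0, 28.6, 17.2 and 24.1 CPM in KO (log2 difference 0.98, SE 0.18, edgeR adjusted p = 4.73e-04). Cox7a2l was at 106, 121, 114 and 109 CPM in WT and 67.0, 79.1, 76.8 and 68.5 CPM in KO (log2 difference -0.63, SE 0.10, edgeR adjusted p = 1.81e-04). Neither gene had overlapping groups, and both calls held in all 19 settings. Per kb of transcript Cox7a2 made up 12.7 to 16.2% of the family in WT and 24.5 to 38.4% in KO, and Cox7a2l 75.9 to 82.1% and 50.8 to 67.2%. The muscle form Cox7a1 did not pass (0.27, SE 0.29) and was at 3.52 ± 1.32 CPM in WT and 4.24 ± 1.10 CPM in KO (SD, n = 4).

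The testis form Cox6b2 had the largest log2 difference of all members. It was at 1.38, 0.465, 0.876 and 1.49 CPM in WT 1 to 4 and 8.35, 8.23, 3.84 and 7.58 CPM in KO 1 to 4 (log2 difference 2.73, SE 0.35, edgeR adjusted p = 4.18e-05). KO 3 was the lowest KO library and still above all WT libraries. The common form Cox6b1, at 22.6, 22.1, 21.7 and 21.5 CPM in WT and 26.0, 27.8, 19.2 and 23.8 CPM in KO, did not pass. Per kb of transcript Cox6b2 made up 2.17 to 6.80% of the pair in WT and 17.4 to 25.3% in KO. The promoters of the pair are set side by side, on chr7:30626065-30626364 and chr7:4753045-4753344, both minus strand. That of Cox6b1 holds 17 CpG and the ETS motif, in capitals, and that of Cox6b2 holds 10 CpG and none of the NRF1, ETS and YY1 letters.
Cox6b1: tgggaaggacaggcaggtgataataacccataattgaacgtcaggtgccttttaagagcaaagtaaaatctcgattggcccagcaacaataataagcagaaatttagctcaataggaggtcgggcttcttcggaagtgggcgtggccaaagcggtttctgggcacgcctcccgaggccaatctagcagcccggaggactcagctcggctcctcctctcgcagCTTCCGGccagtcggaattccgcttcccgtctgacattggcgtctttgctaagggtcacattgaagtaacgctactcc
Cox6b2: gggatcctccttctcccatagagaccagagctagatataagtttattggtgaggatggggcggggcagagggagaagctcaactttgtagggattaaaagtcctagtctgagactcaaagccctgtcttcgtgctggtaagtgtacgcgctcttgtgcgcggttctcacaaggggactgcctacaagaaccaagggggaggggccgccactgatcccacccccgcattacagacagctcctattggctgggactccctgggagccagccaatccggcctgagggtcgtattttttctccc

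Cox4i2, a form known from lung and low oxygen, had the largest fall. It was at 1.79, 3.66, 1.31 and 0.841 CPM in WT 1 to 4 and 0.331, 0.340, 0.738 and 0.193 CPM in KO 1 to 4 (log2 difference -2.25, SE 0.53, edgeR adjusted p = 0.00310), so the groups did not overlap at these low levels. The filter of 1 CPM in 4 libraries left it untested. Tested coding genes with a mean log2 CPM of 0 to 1, where Cox4i2 lies (0.37), had a median log2 difference of -0.996. Among endothelial markers Flt1, Kdr, Cdh5 and Tek fell and Pecam1 rose. The 6 endothelial markers summed to 84.8 to 118 CPM in WT and 73.9 to 87.1 CPM in KO. Markers of other cells also fell, such as Myh11 (-1.56) and Adgre1 (-2.02). In the peritubular and stromal list 2 of 8 rose and 1 fell, and in that of macrophages and blood 1 of 6 rose and 2 fell. The part of any of these markers in the fall of Cox4i2 was not tested.

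Among the other tissue forms, the testis forms Cox7b2 and Cox8c did not pass, with differences of -0.50 and -0.57. Both passed as lower under upper-quartile scaling (-0.73 and -0.80), and Cox8c also without KO 1 (-0.75). Cox7b, the common partner of Cox7b2, rose by 0.89 (SE 0.31, edgeR adjusted p = 0.0256), from 10.04, 5.63, 11.6 and 7.70 CPM in WT to 18.2, 21.4, 6.72 and 18.6 CPM in KO. KO 3 lay within the WT range, and the call was lost in 9 of the 19 settings. Cox8c made up 12.8 to 18.6% of the COX8 family per kb in WT and 7.13 to 13.3% in KO. The muscle forms Cox6a2 and Cox8b were not tested, and no library held more than 0.813 and 0.771 CPM of them.

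**Figure D4:**
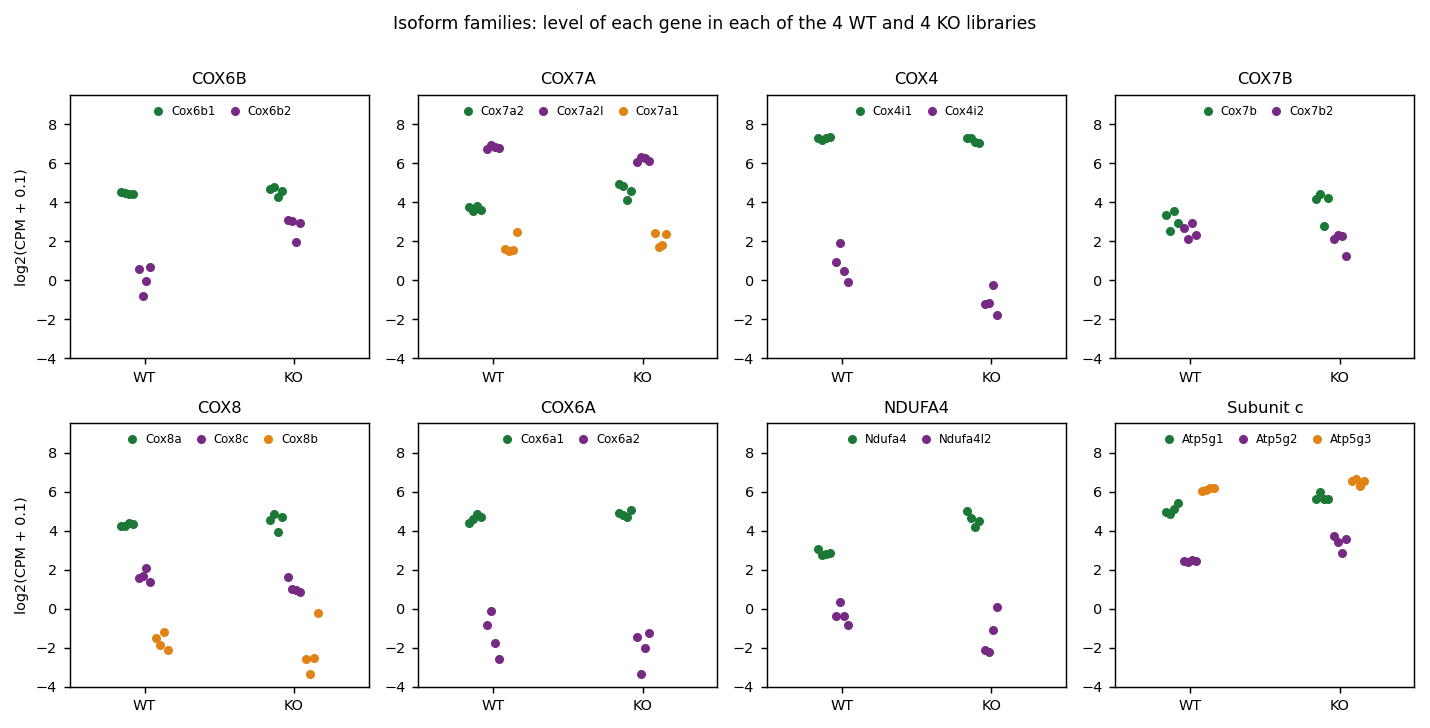
Level of each gene of 8 isoform families in each library, as log2(CPM + 0.1) on the y axis, with 1 point per library for the 4 WT and the 4 KO libraries. Cox6b2 and Ndufa4 are higher and Cox7a2l and Cox4i2 lower in KO without overlap, and Atp5g3 stays the most abundant subunit c gene.

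Complex V had 17 tested members: 12 were higher, none was lower and 5 did not pass (median 0.63). The share higher was 70.6%, beside 25.3% of all tested genes and 46.4% of coding genes whose mean log2 CPM reached 4. The F1 head makes ATP, and 4 of its 5 subunits rose. Atp5b, the catalytic beta subunit and the most abundant member per kb, was at 423, 431, 471 and 557 CPM in WT and 748, 938, 724 and 721 CPM in KO (log2 difference 0.74, SE 0.12, edgeR adjusted p = 2.97e-04). Atp5a1, the alpha subunit, was at 290.1 ± 34.8 CPM in WT and 408 ± 39.1 CPM in KO (SD, n = 4, log2 difference 0.49, SE 0.11, edgeR adjusted p = 0.00242). The groups did not overlap for either, and the call of Atp5a1 was lost under upper-quartile scaling. Atp5c1, the rotating gamma subunit, rose most in the head, from 32.8, 27.9, 35.1 and 26.5 CPM in WT to 84.9, 79.9, 47.8 and 74.9 CPM in KO (log2 difference 1.23, SE 0.17, edgeR adjusted p = 5.95e-05). Atp5d, the delta subunit, rose by 0.34 with overlapping groups, a call lost in 11 of the 19 settings, and Atp5e, the epsilon subunit, did not pass (0.18, SE 0.15).

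The peripheral stalk holds the head still while the rotor turns, and all 4 of its tested subunits rose without overlap (median 1.03). Atp5f1, subunit b, was at 21.5, 20.3, 22 and 22.5 CPM in WT and 86.9, 59.0, 55.1 and 70.6 CPM in KO (log2 difference 1.66, SE 0.14, edgeR adjusted p = 2.08e-06). Atp5h, subunit d, was at 11.9, 10.3, 14.0 and 14.0 CPM in WT and 39.0, 32.1, 26.9 and 27.1 CPM in KO (log2 difference 1.32, SE 0.16, edgeR adjusted p = 2.46e-05). Atp5j rose by 0.74 and Atp5o by 0.67, and the 4 calls held in all 19 settings. The second Atp5o entry, a readthrough with Donson whose principal transcript has 530 bases, had a count of 0 in every library. Atp5f1 shares 8.21% of its exon bases with Wdr77 on the opposite strand, which was also higher (1.11), and Atp5j 12.7% with Gabpa (0.34). Atp5f1 is shown as a second rising member with the YY1 motif, here on the other strand, on chr3:105959214-105959513, minus strand, with the match in capitals.
Atp5f1: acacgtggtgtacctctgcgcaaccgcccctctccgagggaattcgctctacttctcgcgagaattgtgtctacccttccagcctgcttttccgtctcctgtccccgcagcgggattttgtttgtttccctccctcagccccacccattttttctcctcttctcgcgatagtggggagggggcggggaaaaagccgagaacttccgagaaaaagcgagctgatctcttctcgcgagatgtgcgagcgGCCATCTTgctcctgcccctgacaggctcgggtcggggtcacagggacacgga

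The 3 genes for subunit c, which encode the same mature ring protein with different import sequences, all rose without overlap. Atp5g2 was at 5.43, 5.23, 5.50 and 5.31 CPM in WT and 13.4, 10.6, 7.16 and 11.6 CPM in KO (log2 difference 1.00, SE 0.20, edgeR adjusted p = 0.00105). Atp5g1 was at 34.5 ± 6.38 CPM in WT and 53.4 ± 7.11 CPM in KO (SD, n = 4, log2 difference 0.63, SE 0.14, edgeR adjusted p = 0.00226) and Atp5g3 at 70.0 ± 3.86 CPM in WT and 90.6 ± 8.87 CPM in KO (SD, n = 4, log2 difference 0.37, SE 0.10, edgeR adjusted p = 0.00818). Per kb of transcript Atp5g3 made up 86.2 to 87.8% of the family in WT and 81.6 to 84.2% in KO. These shares depend on the transcript lengths used, which were 4715 bases for Atp5g1, 731 for Atp5g2 and 723 for Atp5g3. The rise of Atp5g3 was lost under the 3 scalings, those of Atp5g1 and Atp5g2 in none of the 19 settings. Of the other 5 members only Atp5k (subunit e) passed, with 0.66 (SE 0.23) and overlapping groups, a call lost without KO 2, WT 3 or WT 4 and under the 3 scalings. Atp5j2, Atp5l, Atp5mpl and Atp5s did not pass, with differences of -0.14, 0.05, 0.28 and 0.29.

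Some members can share reads with other loci. In 23 members a pseudogene held a copy of 100 bases or more at 95% identity or more. Of the 22 tested among them 17 were higher and 1 lower, and of the 69 tested members without such a copy 34 were higher and 4 lower. Of the 47 copies 24 were tested, 18 were higher and none was lower, where 25.3% of all tested genes were higher and 28.2% lower. Because reads can be shared, the calls of the copies are not independent of those of their members. With the copies' counts added to their members, 52 members were higher and 5 lower. Exon bases were shared with another gene in 32 members, in 29 with one on the opposite strand, and over 20% of exon bases in 4 (Ndufaf2, Ndufb6, Ndufa13 and Atp5o). Since the strand setting is not given in the sources used here, reads of pairs on opposite strands cannot be told apart.

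Genes around the chain, from lists chosen with earlier results known, were described the same way. Cyc1, a redox subunit of complex III that the naming rule leaves out, rose from 26.0 ± 4.31 to 68.0 ± 5.17 CPM (log2 difference 1.39, SE 0.13, edgeR adjusted p = 3.81e-06). Cyct, the testis form of the electron carrier cytochrome c, rose by 1.20, while the common form Cycs did not pass (0.28). Of the other complex I assembly genes 8 of 10 were higher and none was lower, led by Foxred1 (1.12). For complex II 2 of 3 were higher (Sdhaf4, 1.80; Sdhaf2, 0.44). For complex III 3 of 6 were higher (Uqcc3, 1.31; Uqcc1, 1.32; Bcs1l, 0.40) and 2 lower (Lyrm7, -1.04; Uqcc2, -0.65). For complex IV 11 of 22 were higher, with Coa3 at 2.18, and Higd1a was lower (-0.42). For complex V 2 of 5 were higher (Atpaf2, 1.11; Tmem70, 0.63).

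The 13 genes of mitochondrial DNA, the partners of these subunits, gave 8 higher and none lower (median 0.38). Those with the lowest p were mt-Nd5 at 0.81, mt-Nd6 at 0.90 and mt-Nd4 at 0.61. The 5 that did not pass, mt-Co2, mt-Co3, mt-Atp6, mt-Atp8 and mt-Nd4l, were at group means of up to 7.39 CPM, while mt-Co1 was at 5032 ± 215 CPM in WT and 6233 ± 479 CPM in KO (SD, n = 4). Whether counts so far below that of mt-Co1 measure these 5 genes was not tested, and the median above includes them. Of 14 tested genes for expression and copying of mitochondrial DNA 9 were higher, among them Tfam (0.85) and the helicase Twnk (1.38), and Lrpprc was lower (-0.52). Of 15 nuclear regulators 10 were higher and 1 lower. Among the factors whose motifs were searched Yy1 rose by 1.08, Nrf1 by 0.60 and Gabpa by 0.34, and the coactivator Ppargc1a fell from 3.42 ± 1.35 to 1.04 ± 0.329 CPM (log2 difference -1.72, SE 0.35, edgeR adjusted p = 0.00123).

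Of 14 citric acid cycle genes 10 were higher, with Suclg2 at 2.12, Idh3a at 0.91 and Cs at 0.68, and Suclg1 was lower (-0.45). Of 15 genes for import and carriers 11 were higher and none was lower, among them the ADP/ATP carriers Slc25a5 (1.76) and Slc25a4 (1.56), which exchange the product of complex V. Of 10 genes of cristae and of fusion and fission 6 were higher, with Phb2 at 1.05 and Dnm1l at 1.17, and Chchd3 was lower (-0.43). Higher members outnumbered lower ones in each of these lists under TMM scaling, as they did among the coding genes whose mean log2 CPM reached 4 (3745 higher and 1453 lower, 46.4% and 18.0%), while over all 24005 tested genes lower calls were the more frequent (6770 against 6083). None of the lists was tested against these shares.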

How the data were processed

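The values in the deposited table are raw counts, whole numbers without normalization, with 1 column per library. Per the submitters' processing notes, featureCounts 1.5.0, STAR, Trim Galore, DESeq2 and edgeR were used (roles not named), with the build mm10. Collapse of reads by molecular identifier, the strand setting and the annotation release were not given in the sources used here. Of 55401 identifiers 55141 matched GENCODE M21 without the version and 260 did not, and symbols, exons and principal transcript lengths came from that annotation. No library column was left unused.

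Counts were fitted with edgeR 4.0.16 in R 4.3.3 (filterByExpr, TMM factors, quasi-likelihood test without robust dispersion, genotype as the 1 term), and p-values were adjusted over all 24005 tested genes by Benjamini-Hochberg with a threshold of 0.05. The biological coefficient of variation was 0.217. Total counts per library ran from 13820764 to 20115250. Differences are KO minus WT. Values per kb are CPM divided by the principal transcript length. Pseudogene copies were searched with blastn in the M21 transcripts, and promoter windows came from RefSeq.

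Members and lists were chosen with earlier results of these data known. Named genes were Tet1, per complex the 4 largest passing rises and up to 2 falls, all isoform families, members passing in the less common direction, and up to 3 genes per pathway list by p. One member is included in all counts and sums but is not reported here by itself. Other members and list genes were named after their values were seen. Alternatives were DESeq2 1.42.0, 4 other scalings (cyclic loess with limma 3.58.1), 2 filters, coding genes only, a replicate block, robust dispersion, a threshold of 0.1 and leaving out each library. Adding pseudogene copies was chosen after seeing the data. The fit was tested on simulated counts in which few genes changed, about equally in both directions. Since 53.5% of tested genes were called in the data, that simulation cannot speak to the choice of scaling.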

Additional observations from a re-analysis of the deposited data

Results flagged for a closer look

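In each group of 4 libraries the gap of the highest or lowest value to its neighbour was compared with the group's range, and a share above Dixon's 95% critical value marked the library as standing apart. The 196 groups were 182 of tested members and 14 of summed levels (all members and the 6 classes by complex). This held in 16 of the 196 (8.16%), all of them groups of members, and chance alone marks about 1 in 20. The libraries of a member are not independent of those of another, so the excess was not tested.

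Among complex I members, Ndufa1 was high in KO 1 at 13.2 CPM, beside 9.25 to 9.67 CPM in the other KO libraries. Ndufa13 was high in WT 4 at 56.9 CPM (others 42.1 to 43.5), Ndufa6 low in WT 2 at 21.2 CPM (27.1 to 28.3) and Ndufa8 low in WT 4 at 35.6 CPM (46.5 to 48.6). Ndufs8 was low in KO 4 at 38.4 CPM (50.5 to 50.9). Of the assembly factors, Ndufaf2 was low in WT 4 at 18.6 CPM (30.4 to 31.5) and Ndufaf3 high in WT 2 at 3.19 CPM (1.42 to 1.69).

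In complex III, Uqcrfs1 was high in WT 2 at 56.4 CPM (52.9 to 53.5) and Uqcrq high in WT 4 at 19.1 CPM (15.97 to 16.49). In complex IV, Cox4i1 was low in WT 2 at 147 CPM (159.5 to 160.3), Cox6b2 low in KO 3 at 3.84 CPM (7.58 to 8.35), Cox7a1 high in WT 4 at 5.50 CPM (2.79 to 2.97) and Cox8c high in KO 1 at 2.98 CPM (1.73 to 1.93).

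In complex V the 3 values were all in KO 2. Atp5a1 stood at 467 CPM (387.5 to 390.3), Atp5b at 938 CPM (721 to 748) and Atp5g1 at 64.0 CPM (49.6 to 50.2). The rises of Atp5b and Atp5g1 kept their calls without KO 2, as did that of Atp5a1.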

How the results depend on the processing

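Under TMM scaling 51 members were higher and 5 lower. Upper-quartile scaling gave 29 and 13 (median 0.16), with complex I at 10 and 5, its assembly factors at 1 and 2, complex II at 2 higher, complex III at 3 higher and complex IV at 5 lower. Ribosomal protein scaling (83 genes) gave 32 and 9 (median 0.23), with complex I at 10 and 4, the assembly factors at 1 and 2 and complex II at 2 higher. Cyclic loess gave 11 lower (median 0.20), with complex I at 12 and 5, complex II at 2 higher, complex III at 3 higher and the assembly factors at 2 lower. The stricter filter left complex IV with 1 lower, since Cox4i2 was not tested. Complex I had 2 lower with coding genes only or a threshold of 0.1. Which scaling is right was not tested. Leaving out 1 library gave 40 to 60 higher members and 3 to 6 lower, 13 (without WT 1) to 25 (without KO 3) higher in complex I, 0 to 2 lower in complex I and 0 to 1 lower among the assembly factors. DESeq2 gave 53 and 5, RLE scaling 52 and 5, no filter 50 and 5 and robust dispersion 51 and 5. No called member changed sign.

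Same-numbered KO and WT libraries had deviations from their group means correlated at 0.148, -0.213, -0.115 and 0.0147, within the range of differently numbered ones (-0.223 to 0.244). These values cannot show whether libraries share an origin, such as KO 1 and WT 1, whose names start with the same number. The replicate block gave 42 higher and 5 lower members (median 0.40). At 3 counts per library the floor was 0.146 to 0.221 CPM, which limits Cox4i2, Ndufa4l2, Cox6a2 and Cox8b.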
